A study of Arabidopsis thaliana with 8 samples.

Results

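A set of 28 Arabidopsis genes was silent in wild-type (WT) endosperm and on in both genotypes whose mother lacked NRPD1. They were chosen from the deposited expression values among 37329 genes. A member is a nuclear gene outside the deposited introgressed regions that lay below 0.1 FPKM in WT in both the nrpd1-/- and the mat nrpd1+/- table and at 1 FPKM or more in nrpd1-/- and in mat nrpd1+/-. FPKM counts fragments relative to transcript length and to all mapped fragments of the library, so it can be set side by side between genes. The rule used the WT, nrpd1-/- and mat nrpd1+/- values, which are therefore given as a description with no test, while the pat nrpd1+/- value took no part in it. Of 30177 nuclear genes outside the introgressed regions, 11668 were silent in WT by this rule.

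Endosperm mRNA was measured 7 days after pollination in F1 seeds of Ler mothers and Col-0 fathers, to learn whether Pol IV acts through the mother or the father. WT seeds had no nrpd1 mutation (2 libraries in the labels), mat nrpd1+/- seeds had a Ler nrpd1-/- mother and a Col-0 father (3 libraries), nrpd1-/- seeds had nrpd1-/- parents on both sides (3 libraries), and pat nrpd1+/- seeds, named in the series design, had a Ler mother and a Col nrpd1-/- father. Seeds came from crosses between several plants. The nrpd1 mutation of the Ler mothers came from Col-0 by introgression, and 12 regions of Col-0 sequence remained in them, which cover 6867 nuclear genes. The nrpd1-/- and mat nrpd1+/- seeds thus shared a mutant mother and her Col-0 regions, and effects of her seed tissues and of the endosperm itself cannot be told apart. Loss of maternal NRPD1 and effects of those Col-0 regions on genes elsewhere cannot be told apart either, and this holds for members outside the regions.

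NRPD1 encodes the largest subunit of RNA polymerase IV, a plant enzyme whose short transcripts are turned into small interfering RNAs that guide DNA methylation. The endosperm is the seed tissue that feeds the embryo, and it receives more genome copies from the mother than from the father. Later in seed growth, abscisic acid and the transcription factors LEC1, LEC2, FUS3 and ABI3 bring on the maturation programme of storage proteins, oil body proteins and late embryogenesis abundant (LEA) proteins. Suberin is a polyester of fatty acids, glycerol and ferulate that seals barrier layers in roots and seed coats.

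Each deposited table holds a single FPKM value per genotype, pooled by the authors over its libraries, so there are no values per replicate from which to compute an error or a test. The tables also hold the authors' own tests, which were not used here. The tables were normalised separately. The WT columns of the mat and pat tables differ by little more than a scale factor (SD of the log2 ratio 0.0061 over 13513 genes), so those comparisons share their WT libraries. The depth behind each value is not in the tables, and the library lists of the study show read lengths that differ between genotypes, which cannot be told apart from the genotype. NRPD1 itself (AT1G63020) was at 4.34 FPKM in WT and 2.08 FPKM in nrpd1-/-, at 2.28 and 2.08 FPKM in WT and mat nrpd1+/-, and at 2.01 and 0.845 FPKM in WT and pat nrpd1+/-. Reads over the gene were thus still counted in the homozygous mutant, and the gene lies in an introgressed region. Of 12 listed endosperm markers, 7 lie in introgressed regions, and none of the other 5 reached 1 FPKM in any column. Inside the regions, ZOU was at 67.4 and 43.2 FPKM, ALE1 at 98.1 and 31.6 FPKM and SUC5 at 133 and 218 FPKM in WT and nrpd1-/-. There too, YUC10 was at 12.9 and 79.3 FPKM and FIS2 at 2.35 and 0.224 FPKM. In WT and mat nrpd1+/-, YUC10 was at 6.17 and 66.2 FPKM and PHE1 at 1.51 and 0.108 FPKM. The early markers AGL62, IKU2, MINI3 and AGL36 stood below 0.3 FPKM in every column.

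Of the 28 genes, 15 encode proteins, 2 are pseudogenes and 11 are non-coding RNAs, namely 5 lncRNAs, 4 snoRNAs, the spliceosomal snRNA U5.5 and 1 antisense RNA. They lay on all chromosomes, with 4, 3, 8, 4 and 9 on chromosomes 1 to 5. No member lay next to another in gene order. Their distance to the nearest introgressed region ran from 0.361 to 17.3 Mb, and 3 members lay within 1 Mb of one. The upstream sequences of 5 protein-coding members, among them the gene with the highest level and a pair from a single family, are shown because they hold, or lack, motifs tied to seed genes. Each run is the 250 bases before the annotated start in RefSeq TAIR10.1, 5′ to 3′ on the gene's strand, with capitals where a search found, on either strand, CACGTG or the motif CATGCA or the motif ACCNAAC.
AT4G18920, chr4:10368505-10368754, plus strand: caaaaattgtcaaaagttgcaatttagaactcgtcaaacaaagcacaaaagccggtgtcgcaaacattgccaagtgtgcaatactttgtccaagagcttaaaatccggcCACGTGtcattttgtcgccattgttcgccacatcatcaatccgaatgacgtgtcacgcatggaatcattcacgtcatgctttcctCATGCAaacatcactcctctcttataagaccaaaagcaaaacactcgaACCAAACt
AT5G45690, chr5:18536317-18536566, minus strand: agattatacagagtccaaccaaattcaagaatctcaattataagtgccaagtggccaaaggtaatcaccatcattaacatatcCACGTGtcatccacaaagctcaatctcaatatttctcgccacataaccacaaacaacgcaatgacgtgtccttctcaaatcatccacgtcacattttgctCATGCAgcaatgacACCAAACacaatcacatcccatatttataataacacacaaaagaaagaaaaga
AT1G04560, chr1:1244697-1244946, plus strand: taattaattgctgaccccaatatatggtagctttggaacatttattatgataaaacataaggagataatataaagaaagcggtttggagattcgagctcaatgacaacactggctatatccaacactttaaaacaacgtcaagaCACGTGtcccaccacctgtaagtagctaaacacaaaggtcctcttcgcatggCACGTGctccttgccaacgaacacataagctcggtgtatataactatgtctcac
AT5G20045, chr5:6772253-6772502, minus strand: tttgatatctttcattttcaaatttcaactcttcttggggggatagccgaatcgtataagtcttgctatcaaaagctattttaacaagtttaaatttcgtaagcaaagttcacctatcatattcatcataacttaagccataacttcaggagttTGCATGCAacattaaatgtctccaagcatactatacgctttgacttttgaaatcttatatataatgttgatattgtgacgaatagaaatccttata
ASFT (AT5G41040), chr5:16431054-16431303, plus strand: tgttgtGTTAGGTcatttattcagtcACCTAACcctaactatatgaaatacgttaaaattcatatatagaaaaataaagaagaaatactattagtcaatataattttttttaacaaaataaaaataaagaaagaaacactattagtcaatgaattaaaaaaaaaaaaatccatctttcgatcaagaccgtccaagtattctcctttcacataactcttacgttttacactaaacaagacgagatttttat

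CACGTG is the G-box bound by bZIP factors of the abscisic acid response, CATGCA is the core of the RY element bound by the B3 factors ABI3, FUS3 and LEC2, and ACCNAAC is a form of the AC element bound by MYB factors. AT4G18920 and AT5G45690 held 1 CACGTG, at -141 and -167 from the start, and then 1 CATGCA, at -56 and -67. AT1G04560 held CACGTG at -106 and -54. The run TGCATGCA of AT5G20045 holds CATGCA once on each strand. In the window from 250 bases before to 50 bases after the start, CACGTG was present in 5 of the 15 protein-coding members, in 7.68% of all 27443 protein-coding promoters and in 4.43% of the 5389 promoters of the other silent protein-coding genes. CATGCA was present in 6 of the 15, in 9.72% of all and in 13.1% of the other silent ones. Both motifs stood together in 2 members, the printed pair, in 0.845% of all promoters and in 0.798% of the other silent ones. The shorter ACGTG, which lies within CACGTG, was in 9 of the 15, in 26.7% of all and in 26.0% of the others, and ACCNAAC was in 4 of the 15, in 17.2% and in 15.0%. These matches describe the letters of the window, they were counted after the members' values were known, and binding was not measured.

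The protein-coding members had levels of 1.08 to 63.0 FPKM in nrpd1-/- (median 6.58) and 1.09 to 36.1 FPKM in mat nrpd1+/- (median 2.58). Among all 28, the medians were 3.01 and 1.92 FPKM. In WT, 15 of the 28 were listed at 0 in all 3 tables, 4 of them protein-coding, and the highest WT value was 0.0996 FPKM. Folds are not given, since WT lay at or near 0 in every case. With pooled endosperm, fewer cells that transcribe a gene and less RNA per cell cannot be told apart. Of the WT-silent genes, 0.651% were at 1 FPKM or more in nrpd1-/-, 0.609% in mat nrpd1+/- and 0.24% in both, the last being the 28 members. As the plot of FPKM by genotype shows, the WT and mutant values of each member lie far apart in the first 2 tables because the rule asked for it, and nothing is read from that gap.

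**Figure D1:**
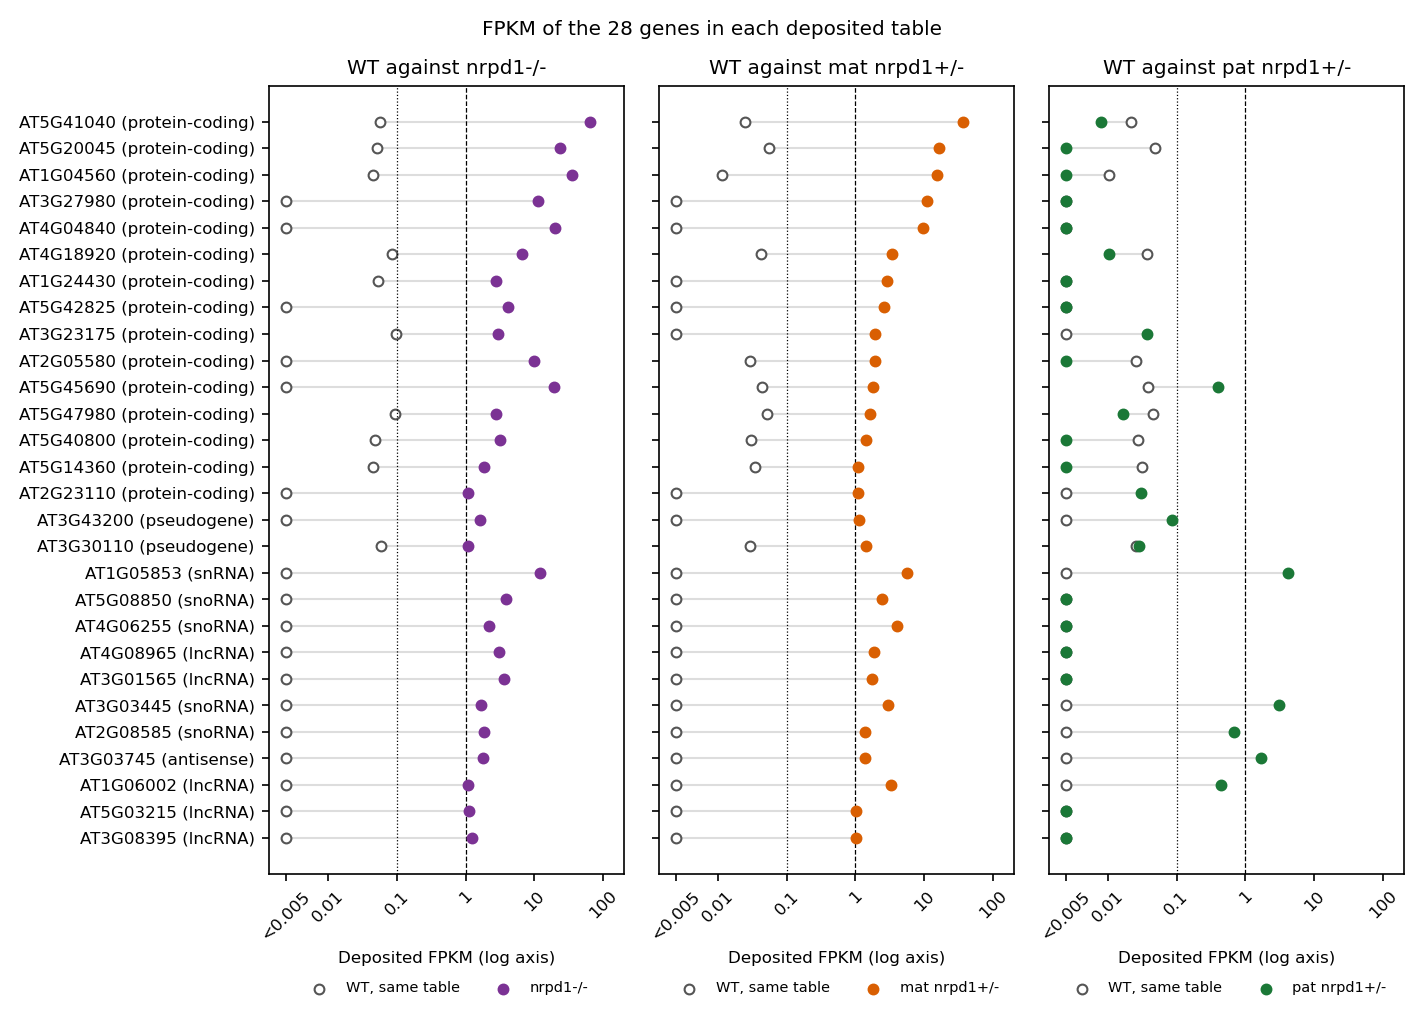
Deposited FPKM (log axis) of the 28 genes in WT (open circles) and in nrpd1-/-, mat nrpd1+/- and pat nrpd1+/- (filled circles), 1 panel per table. Values below 0.005 FPKM, zeros included, are drawn at the left edge, the dotted line marks 0.1 FPKM and the dashed line 1 FPKM. In the pat panel 3 genes, all of them non-coding RNAs, lie right of the dashed line.

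The gene with the highest level was AT5G41040 (chr5:16431304-16433305), known as ASFT and listed as RWP1, an HXXXD-type acyltransferase that joins ferulate to fatty chains in suberin. It was at 0.0579 FPKM in WT and 63.0 FPKM in nrpd1-/-, at 0.0249 and 36.1 FPKM in WT and mat nrpd1+/-, and at 0.022 and 0.00807 FPKM in WT and pat nrpd1+/-. It was thus high wherever the mother was mutant and near 0 elsewhere. AT5G41050, which overlaps it on the other strand, stayed between 0.411 and 0.648 FPKM in the first 2 tables.

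Further suberin genes were looked at after the level of ASFT was known, so their pattern is not independent of it. ABCG20, a transporter for suberin, was at 10.2 FPKM in WT and 99.1 FPKM in nrpd1-/-, and at 2.64 and 74.2 FPKM in WT and mat nrpd1+/-. KCS2, which lengthens fatty acids, went with it (0.736 and 48.5 FPKM, then 0.613 and 21.9 FPKM). MYB107, a transcription factor that promotes suberin genes in the seed coat, was at 0.655 and 14.5 FPKM, then at 0.0216 and 10.5 FPKM. CYP86B1, a fatty acid hydroxylase, was at 2.13 and 14.4 FPKM, then at 1.10 and 6.73 FPKM.

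These 5 genes, ASFT included, were the ones at least 2-fold higher on the log2(FPKM + 1) scale among the 6 of 15 suberin genes that reached 1 FPKM in WT or nrpd1-/-, and among the 5 of 15 that did so in WT or mat nrpd1+/-. Over all genes that reached 1 FPKM in the same tables, 9.02% were 2-fold higher in nrpd1-/- and 10.2% in mat nrpd1+/-. ASFT was higher because the rule asked for it. KCS2 and MYB107 reached 1 FPKM only in the genotypes in which they were high, while ABCG20 and CYP86B1 also reached it in WT. The suberin counts are therefore a description, and no enrichment is read from them. The pathway was not on as a whole. GPAT5, which starts the glycerol polyester, was at 0.0519 FPKM in nrpd1-/- and 0.0075 FPKM in mat nrpd1+/-, and CYP86A1, FAR4, FAR5 and MYB41 also stayed below 0.1 FPKM in both. Against pat nrpd1+/-, 2 of the suberin genes reached 1 FPKM, and neither passed 2-fold on the same scale. KCS2 was at 0.534 FPKM in WT and 1.60 FPKM in pat nrpd1+/- (a difference of 0.76 in log2(FPKM + 1)), and ABCG20 was at 2.33 and 1.22 FPKM (a difference of -0.58). ABCG2, a further suberin transporter, lies in an introgressed region and was left out of these counts.

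**Figure D2:**
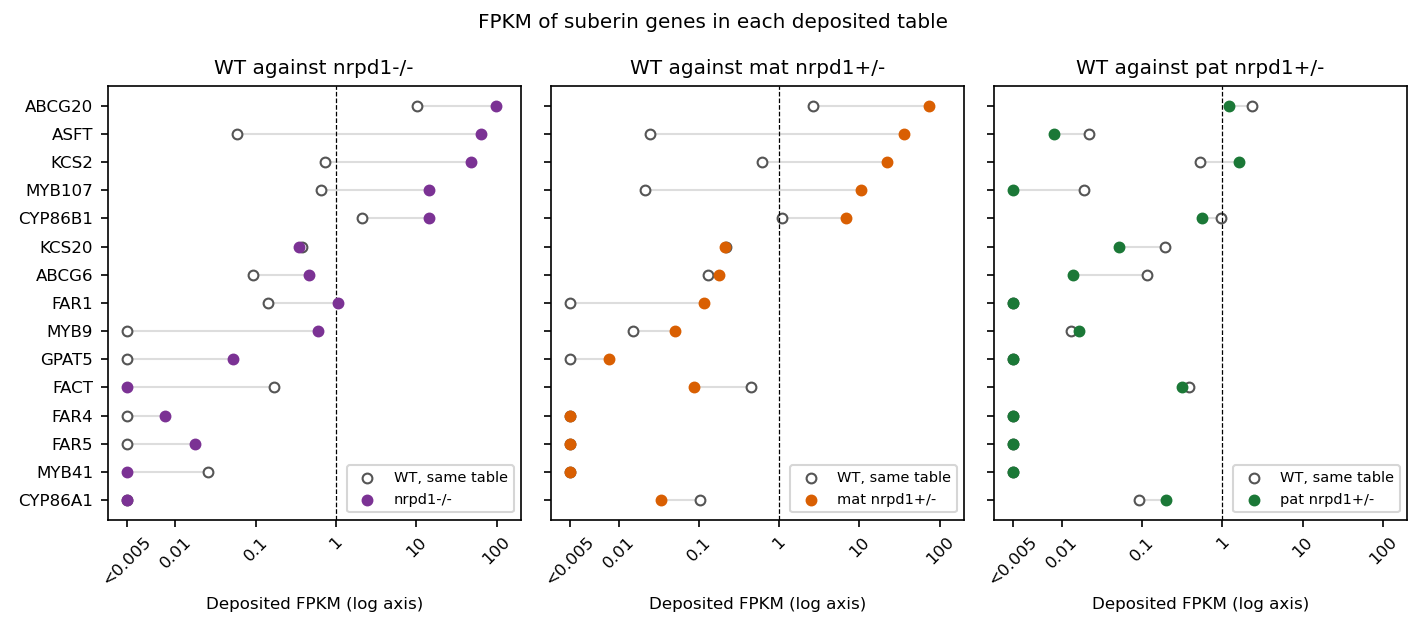
Deposited FPKM (log axis) of 15 suberin genes outside the introgressed regions in WT (open circles) and each nrpd1 genotype (filled circles), 1 panel per table, with values below 0.005 FPKM at the left edge and a dashed line at 1 FPKM. ABCG20, ASFT, KCS2, MYB107 and CYP86B1 lie far right of WT in the nrpd1-/- and mat nrpd1+/- panels, and GPAT5, FAR4, FAR5, MYB41 and CYP86A1 lie left of 0.1 FPKM in both of these genotypes.

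Beside ASFT, 2 further HXXXD-type acyltransferases were members. AT1G24430 (chr1:8658003-8659514) was at 0.0538 FPKM in WT and 2.77 FPKM in nrpd1-/-, and at 0 and 2.83 FPKM in WT and mat nrpd1+/-. AT5G47980 (chr5:19428888-19430517), the acyltransferase next to the thalianol genes, which make a root triterpene, was at 0.0948 and 2.74 FPKM, then at 0.0512 and 1.62 FPKM. THAS, THAH and THAD of that cluster stayed below 0.1 FPKM in every column, so AT5G47980 was on without its neighbours. Of the 29 HXXXD genes that were silent in WT, the other 26 stayed below 0.1 FPKM in nrpd1-/- and mat nrpd1+/- as well. This family and those below were counted after the members were known.

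AT4G18920 (chr4:10368755-10370281) and AT5G45690 (chr5:18534999-18536316) are both DUF1264 proteins, a family that includes proteins of seed oil bodies and is listed in the annotation as histone acetyltransferase. AT4G18920 was at 0.085 FPKM in WT and 6.58 FPKM in nrpd1-/-, at 0.0424 and 3.37 FPKM in WT and mat nrpd1+/-, and at 0.0367 and 0.0104 FPKM in WT and pat nrpd1+/-. AT5G45690 was at 0 and 19.2 FPKM, then at 0.0439 and 1.82 FPKM, then at 0.0381 and 0.4 FPKM, the highest pat nrpd1+/- value of any protein-coding member. The nrpd1-/- level of AT5G45690 was 10.5 times its mat nrpd1+/- level, the widest such ratio among the 28, over tables that were normalised separately.

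The family has 5 genes outside the introgressed regions, and the others were not members. AT1G05510 was at 7.26 FPKM in WT and 314 FPKM in nrpd1-/-, and at 0.434 and 112 FPKM in WT and mat nrpd1+/-. AT1G29680 was at 3.59 and 56.0 FPKM, then at 0.517 and 39.6 FPKM. AT2G31985, the last of the 5, was at 0 in WT, 0.566 FPKM in nrpd1-/- and 0.14 FPKM in mat nrpd1+/-, short of the level the rule asks for.

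AT1G04560 (chr1:1244947-1246059) encodes an AWPM-19-like membrane protein, named after a wheat protein induced by abscisic acid. It was at 0.0456 FPKM in WT and 34.8 FPKM in nrpd1-/-, at 0.0117 and 15.2 FPKM in WT and mat nrpd1+/-, and at 0.0103 and 0 FPKM in WT and pat nrpd1+/-. The other WT-silent gene of its family, AT5G46530, was at 0.0117 FPKM in nrpd1-/- and at 0 in mat nrpd1+/-. AT2G23110 (chr2:9840456-9841366), a group 6 LEA protein, lay just inside the rule, with 1.08 FPKM in nrpd1-/- and 1.09 FPKM in mat nrpd1+/- and 0 in WT. It was the only member among 16 WT-silent LEA genes, of which 12 stayed below 0.1 FPKM in both genotypes.

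AT4G04840 (chr4:2449434-2451651) encodes MSRB6, a methionine sulfoxide reductase, of the enzymes that repair oxidised methionine. It was listed at 0 in WT in all 3 tables, at 20.1 FPKM in nrpd1-/-, at 9.60 FPKM in mat nrpd1+/- and at 0 in pat nrpd1+/-. Its relatives from the same cluster on chromosome 4 were not silent in WT. MSRB4 was at 12.7 and 31.8 FPKM in WT and nrpd1-/- and at 6.18 and 17.4 FPKM in WT and mat nrpd1+/-. MSRB5 was at 0.502 and 2.14 FPKM, then at 0.619 and 0.833 FPKM, and MSRB3 was at 29.2 and 34.3 FPKM, then at 52.2 and 43.1 FPKM. The other WT-silent genes of the family, MSRB7 and MSRB8, stayed below 0.1 FPKM in nrpd1-/- and mat nrpd1+/-. AT3G27980 (chr3:10393904-10395861), a pectin methylesterase inhibitor, which acts on cell wall pectin, was at 0 in WT, 11.2 FPKM in nrpd1-/-, 11.1 FPKM in mat nrpd1+/- and 0 in pat nrpd1+/-. The lncRNA AT3G27990, which overlaps it on the other strand, stayed between 2.27 and 2.81 FPKM in the first 2 tables.

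AT5G20045 (chr5:6771472-6772252), a protein of unknown function, had the level ranked after ASFT when members were ordered by the lower of their nrpd1-/- and mat nrpd1+/- values. It was at 0.0515 FPKM in WT and 23.8 FPKM in nrpd1-/-, at 0.056 and 16.3 FPKM in WT and mat nrpd1+/-, and at 0.0486 and 0 FPKM in WT and pat nrpd1+/-. AT2G05580 (chr2:2055519-2056745), a glycine-rich protein, was at 9.77 FPKM in nrpd1-/- and 1.91 FPKM in mat nrpd1+/-, and its 7 WT-silent relatives stayed below 0.1 FPKM in both. AT3G23175 (chr3:8273772-8275565), an HR-like lesion-inducing protein, was at 2.94 and 1.93 FPKM. Its neighbour AT3G23180, of the same family, was at 0.0746 and 8.21 FPKM in WT and nrpd1-/- and at 0.136 and 5.14 FPKM in WT and mat nrpd1+/-, and so missed the rule by its WT level alone.

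The remaining protein-coding members were AT5G42825 (4.11 FPKM in nrpd1-/- and 2.58 FPKM in mat nrpd1+/-), AT5G40800 (3.15 and 1.42 FPKM) and the ubiquitin-like AT5G14360 (1.87 and 1.09 FPKM). Each was at or below 0.048 FPKM in WT and at 0 in pat nrpd1+/-. The pseudogenes AT3G43200 and AT3G30110 were at 1.63 and 1.10 FPKM in nrpd1-/- and at 1.12 and 1.42 FPKM in mat nrpd1+/-. Pseudogenes, which in this annotation include transposon remnants, made up 4118 of the WT-silent genes, and 0.0486% of them were members, against 0.278% of the WT-silent protein-coding genes. No member came from the F-box, MADS-box, MYB, NAC, cytochrome P450, defensin or lipid transfer families, which held 245, 36, 63, 35, 84, 8 and 52 WT-silent genes. At a share of 0.278%, families of these sizes would hold few members or none, so nothing is read from their absence. AGL67 (MADS-box), CYP76C1 (cytochrome P450), and EDA4 and AT2G48130 (lipid transfer) reached the same levels but lie in introgressed regions.

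The 11 non-coding members had lower levels, with a median of 1.84 FPKM in nrpd1-/- and 1.87 FPKM in mat nrpd1+/-. Of the 28 members, 10 had a transcript under 500 bases, all of them non-coding, and FPKM divides by length, so that few reads give 1 FPKM there. U5.5 (AT1G05853, chr1:8525104-8525204) was highest, at 0 in WT, 12.0 FPKM in nrpd1-/- and 5.51 FPKM in mat nrpd1+/-. It lies 130 bases from UGT74B1 and 175 bases from AT1G24095, which were at 6.46 and 6.19 FPKM in WT of the nrpd1-/- table. snoRNAs and snRNAs, which guide the processing of other RNAs, made up 5 of the 28 members (17.9%) and 0.79% of the other WT-silent genes. The snoRNA members were AT5G08850, AT4G06255, AT3G03445 and AT2G08585, with 1.69 to 3.88 FPKM in nrpd1-/- and 1.39 to 4.05 FPKM in mat nrpd1+/-. Cuffdiff marked AT5G08850 as having too few reads to test in all 3 tables. The libraries were made from poly(A) RNA, and how well they capture snRNAs and snoRNAs was not measured. A WT value of 0 for such a gene may therefore not mean that it was silent.

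Reads were not stated to be assigned by strand, so a gene and an overlapping partner on the other strand cannot be told apart. Of the 28, 10 overlap another gene of the tables, and 3 of these partners were 2-fold higher in both genotypes. The lncRNA AT1G06002 (chr1:1820254-1821887) was at 1.10 FPKM in nrpd1-/- and 3.30 FPKM in mat nrpd1+/-. It lies opposite AT1G06000, which encodes a flavonol 7-O-rhamnosyltransferase and was at 2.66 and 38.3 FPKM in WT and nrpd1-/-, and at 2.24 and 35.0 FPKM in WT and mat nrpd1+/-. The partner's level was thus far above that of the lncRNA.

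The lncRNA AT4G08965 (3.09 and 1.87 FPKM in nrpd1-/- and mat nrpd1+/-) lies opposite AT4G34320, a DUF677 gene that was at 0.739 and 12.5 FPKM in WT and nrpd1-/- and at 0.714 and 8.12 FPKM in WT and mat nrpd1+/-. AT3G01565 (3.60 and 1.76 FPKM) lies opposite AT3G05035, which was at 0.162 and 3.79 FPKM, then at 0.0814 and 3.36 FPKM. For these 3 members the gene that was switched on is therefore uncertain. Of the neighbours that did not overlap and reached 1 FPKM in both tables, 4 of 25 were 2-fold higher in both genotypes, against 5.24% of all genes, and they included the aquaporin NIP1;2 beside AT4G18920 and the B12D gene AT3G29970 beside AT3G30110.

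The plot of nrpd1-/- against mat nrpd1+/- levels sets the members among all WT-silent genes. In nrpd1-/- alone 48 further silent genes were on, and 43 in mat nrpd1+/- alone. Of the first group 26 encode proteins, and 21 of the 48 were below 0.1 FPKM in mat nrpd1+/-. Of the second group 14 encode proteins, 17 are snoRNAs or snRNAs, and 35 of the 43 were below 0.1 FPKM in nrpd1-/-. The median transcript length was 896 bases for the 28 members, 705 bases for the first group and 101 bases for the second.

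**Figure D3:**
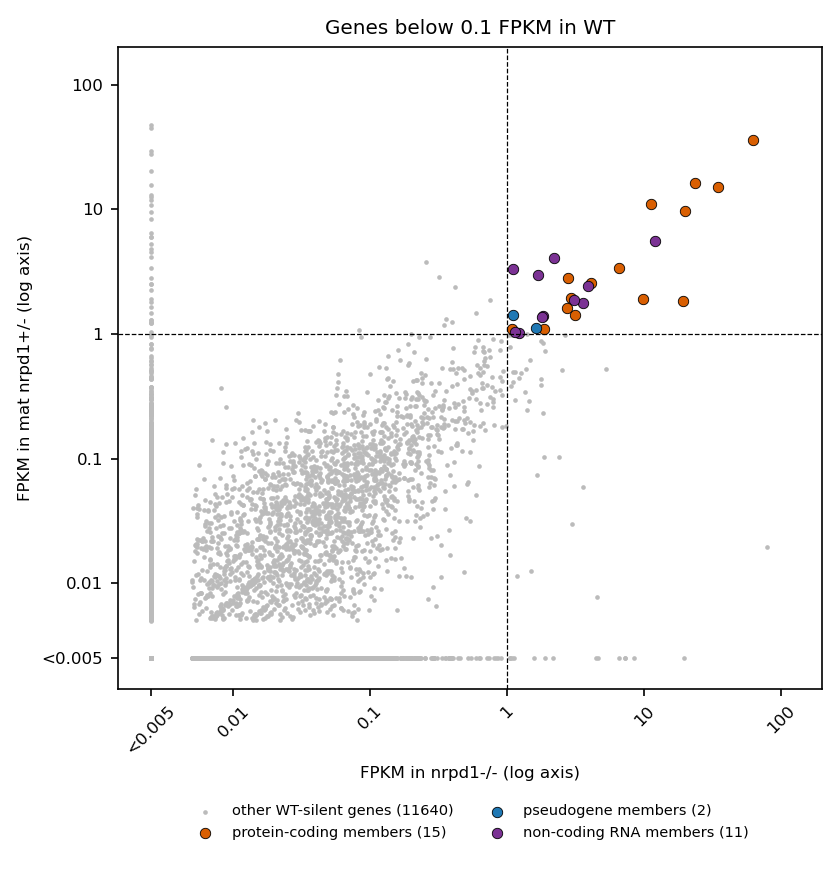
FPKM in nrpd1-/- (x) and mat nrpd1+/- (y), both on log axes, of the 11668 genes below 0.1 FPKM in WT, with values below 0.005 FPKM at the edges and dashed lines at 1 FPKM. The 28 members fill the upper right corner by the rule, with ASFT at its far end (63.0 and 36.1 FPKM), while genes on in mat nrpd1+/- alone lie mostly along the left edge.

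Of the 28 members, 22 had a higher value in nrpd1-/- than in mat nrpd1+/-, with a median ratio of 1.56, over tables that were normalised separately. The WT values of these tables also differed, with CRU2 at 21.1 and 2.40 FPKM and AT1G05510 at 7.26 and 0.434 FPKM. LEC1 went the other way, at 207 and 509 FPKM. A ratio between the tables therefore cannot be read as a difference between the genotypes alone. Among all 12971 genes at 1 FPKM or more in both genotypes, 41.5% had a higher value in nrpd1-/-, and the median ratio was 0.937. Beside AT5G45690, AT2G05580 had a ratio of 5.11, and the lncRNA AT1G06002 had the lowest, 0.334. The difference between the genotypes was not tested.

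The pat nrpd1+/- values were the column that the rule did not use, while the WT values beside them share libraries with the mat table and were held low by the rule. In pat nrpd1+/-, 3 of the 28 members (10.7%) were at 1 FPKM or more, beside 0.411% of all WT-silent genes and 0.387% of those that were not members. None of the 15 protein-coding members reached that level, beside 18 of the 5389 other WT-silent protein-coding genes (0.334%). At that share, 15 genes would hold few or none, so nothing is read from their absence. The pat nrpd1+/- values of the 15 ran from 0 to 0.4 FPKM, 9 of them were listed at 0, and only AT5G45690 was above 0.1 FPKM. Cuffdiff marked 14 of the 15 as having too few reads to test there. The median difference in log2(FPKM + 1) between pat nrpd1+/- and WT was 0 over the 28 members. WT-silent genes that were not members also had a median pat nrpd1+/- value of 0 FPKM, so the median of 0 is not particular to the members.

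The 3 members on in pat nrpd1+/- were U5.5 at 4.08 FPKM, the snoRNA AT3G03445 (chr3:5830283-5830437) at 3.03 FPKM and the antisense RNA AT3G03745 (chr3:6430084-6430211) at 1.66 FPKM, each at 0 in WT. For AT3G03445 this was above its 1.69 FPKM in nrpd1-/- and 2.96 FPKM in mat nrpd1+/-, and for AT3G03745 it was between its 1.80 and 1.36 FPKM. Cuffdiff marked 25 of the 28 members as having too few reads to test in the pat nrpd1+/- table, U5.5 and AT3G03745 among them, and AT3G03745 also in the nrpd1-/- table. AT3G03445 had no such mark in any table. Of 92 WT-silent snoRNAs and snRNAs that were not members, 19 (20.7%) were also at 1 FPKM or more in pat nrpd1+/-. AT3G03745 lies opposite MKS1, a MAP kinase substrate gene, which was at 0.897 FPKM in WT and 1.20 FPKM in pat nrpd1+/-.

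Seed maturation genes stood high in the genotypes in which the members were on. On the log2(FPKM + 1) scale, 12 of 13 listed maturation genes that reached 1 FPKM were 2-fold higher in nrpd1-/- (median difference 3.53) and 14 of 15 in mat nrpd1+/- (median 4.47). Over all genes, 9.02% and 10.2% were 2-fold higher in these genotypes. In pat nrpd1+/- none of 15 was 2-fold higher and 11 were 2-fold lower (median -1.33), beside 2.78% of all genes higher and 3.09% lower. Of the seed coat markers in the pat nrpd1+/- table, 2 of 9 were 2-fold higher, none was 2-fold lower and the median difference was 0.51. PER36 was at 7.00 and 45.4 FPKM and MYB5 at 4.97 and 12.6 FPKM in WT and pat nrpd1+/-, while TT10 was at 47.3 and 24.5 FPKM. The summed level of the 11 seed coat markers outside the introgressed regions was 81.6 and 113 FPKM. PER36 alone rose by more than that sum, and 7 of the 11 were above WT. None of 8 embryo markers differed 2-fold there (median -0.24). The summed level of the 14 embryo markers outside the regions was 606 and 838 FPKM. LEC1 alone, at 448 and 695 FPKM, rose by more than that sum, and 3 of the 14 were above WT. The part of either tissue in the maturation genes' values was not tested. CRU2, a cruciferin storage protein, was at 21.1 and 2043 FPKM in WT and nrpd1-/-, at 2.40 and 1162 FPKM in WT and mat nrpd1+/-, and at 2.13 and 0.143 FPKM in WT and pat nrpd1+/-. RAB18, a dehydrin induced by abscisic acid, was at 1.57 and 70.9 FPKM, then at 0.132 and 24.1 FPKM, then at 0.117 and 0.0129 FPKM. None of the listed genes was a member.

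The programme was not on in full either. EM1 and HSFA9, which come late in maturation, stayed below 0.2 FPKM in every column. Of the regulators, FUS3 was at 123 and 171 FPKM in WT and nrpd1-/- and at 94.9 and 178 FPKM in WT and mat nrpd1+/-. ABI3 was at 38.2 and 58.5 FPKM, then at 20.0 and 58.2 FPKM. LEC1 was lower, at 207 and 79.8 FPKM, then at 509 and 95.2 FPKM, and so was LEC2, at 21.6 and 6.67 FPKM, then at 23.0 and 8.87 FPKM. Several storage protein genes, such as SESA2 and SESA3, were listed at 0 in a mutant with the Cuffdiff mark for too many reads, and these were left out of the counts. No member had that mark.

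Markers of other seed tissues were set beside the members. Of the embryo markers outside the introgressed regions, 0 of 7 at 1 FPKM were 2-fold higher and 3 lower in nrpd1-/-, and 2 of 8 (ABI3 and ATML1) were higher and 3 lower in mat nrpd1+/-. Their summed level was 437 FPKM in WT and 365 FPKM in nrpd1-/-, and 688 and 379 FPKM in WT and mat nrpd1+/-, while their median difference in log2(FPKM + 1) was 0.47 and 0.09. LEC1 alone, at 207 and 79.8 FPKM and then at 509 and 95.2 FPKM, was lower by more than the whole sum was in either table. The embryo patterning genes ranged widely. CUC1 was at 27.0 and 12.3 FPKM in WT and nrpd1-/- and at 31.4 and 12.8 FPKM in WT and mat nrpd1+/-. SCR was at 9.14 and 14.6 FPKM, then at 6.30 and 11.3 FPKM. ATML1 was at 11.2 and 21.9 FPKM, then at 2.59 and 13.4 FPKM. WOX2 was at 0.237 and 0.208 FPKM, then at 1.23 and 0.5 FPKM. CUC2, PLT1, DRN and CLV3 stayed below 0.1 FPKM. WUS was at 0.0284 and 0.346 FPKM, then at 0.031 and 0.189 FPKM, and WOX5 was at 0.0765 and 0.0767 FPKM, then at 0.0732 and 0.149 FPKM. Of the seed coat markers outside the regions, 1 of 8 was 2-fold higher (MYB5) and 1 lower in nrpd1-/-, and 0 of 9 were higher and 1 lower in mat nrpd1+/-. Their summed level was 145 FPKM in WT and 124 FPKM in nrpd1-/-, and 92.7 and 107 FPKM in WT and mat nrpd1+/-. Inside the regions, TTG2 was at 2.09 and 11.8 FPKM, then at 1.80 and 12.4 FPKM. BAN was at 8.84 and 30.8 FPKM, then at 27.9 and 40.2 FPKM. MUM4 was at 93.9 and 47.7 FPKM, then at 65.4 and 58.9 FPKM. GL2 was at 30.5 and 17.2 FPKM, then at 11.9 and 12.1 FPKM. The shares of all genes 2-fold higher were 9.02% in nrpd1-/- and 10.2% in mat nrpd1+/-, and those 2-fold lower were 7.11% and 14.4%. None of 7 genes that every cell uses differed 2-fold in any table. The part of the maturation genes' shift in the members' levels was not tested.

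**Figure D4:**
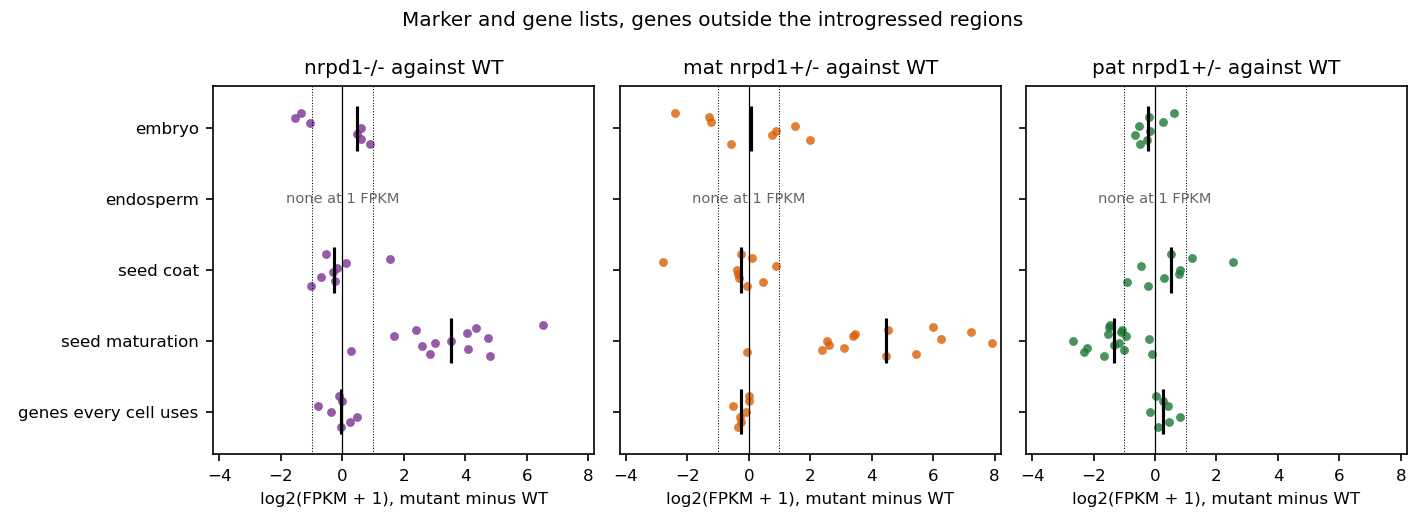
Difference in log2(FPKM + 1) between each nrpd1 genotype and WT of its own table for the listed genes outside the introgressed regions that reached 1 FPKM in either, with black bars at the median and dotted lines at 2-fold. Seed maturation genes lie right of 0 in nrpd1-/- (median 3.53) and, but for OLEO3 at -0.042, in mat nrpd1+/- (median 4.47). They lie left of it in pat nrpd1+/- (median -1.33), and the embryo, seed coat and general genes lie on both sides of 0.

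Of the genes known to be silenced by DNA methylation, none was a member. SDC was at 0.122 and 2.78 FPKM in WT and nrpd1-/- and at 10.2 and 0.205 FPKM in WT and mat nrpd1+/-, so its WT level differed between the tables. FWA and SUP stayed below 0.5 FPKM in those columns. QQS was at 8.11 and 2.82 FPKM in WT and nrpd1-/- and at 15.2 and 20.1 FPKM in WT and mat nrpd1+/-.

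The edges of the rule were drawn through a continuous range. Just inside the on level, by the lower of the nrpd1-/- and mat nrpd1+/- values, were AT3G08395 at 1.01 FPKM, AT5G03215 at 1.03 FPKM and AT2G23110 at 1.08 FPKM. Just outside were AT3G10185 at 0.992 FPKM and AT5G08830 and HIS1-3, a linker histone gene induced by drought, both at 0.987 FPKM. Just inside the WT limit, by the higher of the WT values, were AT3G23175 at 0.0996 FPKM, AT5G47980 at 0.0948 FPKM and AT4G18920 at 0.085 FPKM. Just outside were AT1G08340 at 0.1003 FPKM, AT3G14170 at 0.102 FPKM and AT4G40065 at 0.107 FPKM.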

How the data were processed

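mRNA of dissected endosperm was sequenced from poly(A) RNA with a SMARTer low-input kit per the labels, or a Smart-Seq2 protocol per the paper's methods. The authors trimmed reads with Trim Galore, mapped them with Tophat 2.1.1 on the TAIR10 build and deposited 3 Cuffdiff tables, each with FPKM for WT and for 1 nrpd1 genotype, pooled over libraries. The paper's methods give Cuffdiff 2.1.1 and the submitters' processing notes 2.2.1. The tables also hold the authors' own fold changes, test statistics, p-values and q-values, which were not used. Which WT libraries entered each table is not named, and the pat nrpd1+/- libraries are not among the 8 labelled samples. The deposited introgressed regions were used as given.

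Genes were chosen by FPKM alone, with a pseudocount of 1 FPKM for log2 differences, and list counts needed at least 1 FPKM in WT or mutant and left out genes in introgressed regions or marked HIDATA or FAIL by Cuffdiff. The members and lists were chosen with earlier results of these data known. Named genes are the 25 members highest by the lower of the nrpd1-/- and mat nrpd1+/- values, members on a list or at 1 FPKM or more in pat nrpd1+/-, and 3 genes on each side of each threshold. The remaining members, neighbours and families were named after their values were seen. Positions, gene types, lengths and sequences come from RefSeq TAIR10.1, which matched 37044 of 37329 gene IDs; loci in the tables can span several overlapping genes. The selection code was tested on simulated data. Tables were handled in pandas 2.3.3 and numpy 2.4.6 under Python 3.11.15, figures in matplotlib 3.10.9, and scipy 1.17.1 gave binomial intervals.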

Additional observations from a re-analysis of the deposited data

Results flagged for a closer look

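The introgressed regions, which the choice of genes left out, held 22 further genes that were silent in WT and on in both nrpd1-/- and mat nrpd1+/-, of 1889 WT-silent genes there (1.16%, beside 0.24% outside). The member counts above leave these genes out, though AGL67, CYP76C1, EDA4 and AT2G48130 among them were named there. In these regions the mutant mothers carry Col-0 sequence, so the nrpd1 mutation and the difference in sequence cannot be told apart. Of the 22, 14 encode proteins and 2 were at 1 FPKM or more in pat nrpd1+/-. AAE2, an acyl-activating enzyme, was at 0 in WT, 33.7 FPKM in nrpd1-/- and 30.4 FPKM in mat nrpd1+/-, and AGL67, a MADS-box factor, was at 0.0492 and 19.7 FPKM in WT and nrpd1-/- and at 0 and 8.60 FPKM in WT and mat nrpd1+/-. EDA4 and AT2G48130, lipid transfer proteins that lie side by side, were at 6.37 and 3.87 FPKM in nrpd1-/- and at 1.38 and 1.37 FPKM in mat nrpd1+/-.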

How the results depend on the processing

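The number of genes depends on where the limits are drawn. It was 28 with the chosen limits, 59 with a WT limit of 0.2 FPKM, 60 with an on level of 0.5 FPKM, 11 with an on level of 2 FPKM, 50 with the introgressed regions included and 18 with transcripts of at least 500 bases only. As a share of WT-silent genes, 0.24% became 0.461% with a WT limit of 0.2 FPKM, 0.514% with an on level of 0.5 FPKM, 0.0943% with an on level of 2 FPKM and 0.369% with the introgressed regions included. A WT limit of 0.05 FPKM gave 21 genes, and FPKM rescaled on the median of all genes, which had medians of -0.0085, -0.0906 and 0.0686 (log2, mutant over WT, in nrpd1-/-, mat nrpd1+/- and pat nrpd1+/-), gave 32 that included the 28. The share of members on in pat nrpd1+/- was 0% with transcripts of at least 500 bases, since the 3 genes concerned are shorter, and 5.08% to 14.3% under the other alternatives. The median log2 difference between pat nrpd1+/- and WT was 0 under every alternative run. As WT was held low by the rule and most WT-silent genes were near 0 in pat nrpd1+/- too, nothing is read from this stability. No paired analysis was possible because the tables hold pooled values with no replicate numbers, and for the same reason no replicate was left out. Short transcripts and values near 0 rest on few reads, whose number the tables do not give.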
